A study of Mus musculus with 18 samples.

Results

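The 45 genes described here encode proteins of the large (60S) subunit of the cytoplasmic ribosome: the stalk proteins Rplp0, Rplp1 and Rplp2 and 42 genes named Rpl. They were taken by gene symbol from a count table of 20683 mouse genes, and each of the 45 was present. The cells were erythroblasts, the nucleated precursors of red blood cells, taken from fetal liver of Trp53 -/- mice of FVB/n x C57BL/6 background. Tunicamycin, which blocks N-glycosylation in the endoplasmic reticulum and so causes unfolded protein stress, was given at 2.5 ug/ml for 1.5 h to 1 set of cells, and the other set was left untreated. Every group, untreated ones included, lacks Trp53 and was cultured in StemPro with erythropoietin at 0.5 U/ml, stem cell factor supernatant at 1% and dexamethasone at 1 nM. For either treatment there were 3 samples of each of 3 library types: ribosome footprints after cycloheximide (100 ug/ml, 5 min), which stops elongating ribosomes where they are; footprints after harringtonine (2 ug/ml), which holds ribosomes that have just initiated; and total RNA. That gives 18 samples in 6 groups. No label ties the samples of a group to separate cultures or animals, so the p-values here speak only for the spread among the samples, which may be technical.

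Large-subunit proteins join the ribosomal RNAs in the nucleolus to build the subunit that forms peptide bonds. Their mRNAs typically carry a 5' terminal oligopyrimidine (TOP) tract, a run of C and T letters at the start of transcription through which their translation is held back together when mTORC1 signalling falls. Red cell precursors depend on a steady ribosome supply: in humans, loss of a copy of RPL5, RPL11 or RPL35A causes Diamond-Blackfan anaemia, in which these precursors fail.

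Coding footprints came to 4.53 to 5.09 M (mega reads) per tunicamycin library and 6.42 to 6.65 M per untreated library. RNA reads came to 14.5 to 43.5 M per tunicamycin library and 12.9 to 49.0 M per untreated library. The deposited harringtonine lists, which hold reads at selected single positions and so do not give the depth of sequencing, came to 0.559 to 0.648 M per tunicamycin library and 0.447 to 0.524 M per untreated library. All 10 erythroid marker genes were at 5 CPM or more in RNA (CPM, counts per mega counts of the library's total for that measure), with a summed level of 5212 to 5464 in tunicamycin libraries and 5246 to 5526 in untreated libraries. None of the 4 macrophage, 4 neutrophil and monocyte, 4 hepatocyte or 4 endothelial and stromal markers reached 5 CPM, and Ly6c2 and Ttr among them were at 0. The megakaryocyte gene Gp5 and the mast cell gene Ms4a2 did, each as the only 1 of 4 genes in its list. Of the other megakaryocyte genes, Itga2b averaged 5.10 CPM with tunicamycin and 4.77 untreated, Pf4 0.997 and 0.818, and Gp1bb 0 and 0.0108. Of the other mast cell genes, Cpa3 averaged 2.81 and 2.46, Fcer1a 1.43 and 1.21, and Mcpt8 0.00766 and 0. The summed levels of the lists, set mostly by Gp5 and Ms4a2, were 92.6 to 103 and 107 to 172 in tunicamycin libraries. In untreated libraries they were 111 to 116 and 105 to 169. The part of these lists in the results was not tested.

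Runs of C and T near the annotated start are shown for members that the results below turn on, since a TOP tract is such a run. The following are 30-letter windows of the gene strand from the RefSeq promoter table (GRCm38.p6), with the longest run of C and T between 10 letters before and 50 letters after the annotated start in capitals. Rpl41 (chr10:128549119-128549148, minus strand) rose in coding footprints and Rpl37a (chr1:72711274-72711303, plus strand) fell. Rpl39 (chrX:37085173-37085202, minus strand) rose in the ratio of 3' UTR to coding footprints, and Rpl23 (chr11:97782404-97782433, minus strand) and Rpl37 (chr15:5116631-5116660, plus strand) rose in the ratio of leader to coding footprints.
Rpl41: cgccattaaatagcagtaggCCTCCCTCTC
Rpl37a: cgcattgcgTCCCTTCCTCTTCggacttgg
Rpl39: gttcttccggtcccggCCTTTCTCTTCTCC
Rpl23: gagtgggcggggCCTCCCgttcatatccca
Rpl37: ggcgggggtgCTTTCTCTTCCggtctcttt
The run was 13 letters in Rpl37a, 14 in Rpl39, 11 in Rpl37, 10 in Rpl41 and 6 in Rpl23. It began 23, 36, 28, 40 and 18 letters after the annotated start in that order, so none stood at the start. In Rpl39 and Rpl41 the run reached the end of the searched stretch, so it may be longer. The table matched 34 of the 45 members with 40 start windows, and Rplp1 had no entry. A run of at least 8 C or T letters on the gene strand stood in 28 of these windows (70.0%), against 21.2% of all 32851 promoters. Some members have several starts, so the windows are not independent. In Rpl35a the same run (chr16:33056468-33056497) is counted at different starts. Such a run is a match of letters and not a mapped start of transcription.

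In RNA, no large-subunit gene passed the test. Of the 45 members, 44 had enough reads to test, and 0 passed with edgeR at an adjusted p under 0.05, where 0.15% of all 10643 genes tested passed. At an unadjusted p under 0.05 there was 1 member (2.27%, beside 12.4% of all genes tested), and DESeq2 called 0. The median log2 change, tunicamycin minus untreated, was 0.05 over the members and 0 over all genes tested, with 30 members above 0 and 14 below. In these bulk samples, fewer cells of a type and less RNA per cell cannot be told apart.

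Rpl38, which in mice is needed for translation of some Hox mRNAs, had 264, 332 and 312 CPM of RNA in the tunicamycin libraries and 345, 391 and 335 in the untreated ones. The tunicamycin values lay below all untreated values, by a narrow margin, and the log2 change was -0.23 ± 0.09 (SE; edgeR adjusted p = 0.353). With the replicate number as a block, Rpl38 passed as lower (-0.23, adjusted p = 0.0492) in a fit where 3.85% of all genes passed. Rpl5, a partner of the 5S ribosomal RNA that binds Mdm2 when it is not in a ribosome, had 417, 463 and 425 CPM of RNA with tunicamycin and 263, 360 and 438 untreated. The untreated library 3 lay inside the tunicamycin range (log2 0.31 ± 0.14, adjusted p = 0.404). Rpl11, the other protein of that 5S particle, had 904, 899 and 738 with tunicamycin and 564, 749 and 913 untreated, with the groups overlapping (log2 0.20 ± 0.15, adjusted p = 0.608). Rpl3, which reaches toward the peptidyl transferase centre, changed by 0.18 ± 0.08 (adjusted p = 0.404), and the stalk base protein gene Rplp0 by -0.16 ± 0.07 (adjusted p = 0.416).

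RNA reads of 3 members were few or absent. Rpl26, which encodes a protein near the tunnel exit, was listed at 0 RNA reads in all libraries, where a count of 0 allows up to 0.0689 to 0.208 CPM in tunicamycin libraries and 0.0612 to 0.233 in untreated ones (3 reads, counting error only). Yet Rpl26 had 28.4, 34.0 and 29.1 CPM of coding footprints with tunicamycin and 33.8, 41.1 and 43.0 untreated. Rpl30, which in yeast binds its own transcript, averaged 1.33 ± 0.242 CPM of RNA with tunicamycin and 1.45 ± 0.457 untreated (SD, n = 3 each), but had 216, 256 and 255 CPM of coding footprints with tunicamycin and 253, 302 and 404 untreated. Rpl34 averaged 2.52 ± 0.68 CPM of RNA with tunicamycin and 1.80 ± 0.231 untreated (SD, n = 3 each), and had 0 coding footprints in every library. That count of 0 allows up to 0.590 to 0.662 CPM in tunicamycin libraries and 0.451 to 0.468 in untreated ones. The treatment of reads shared with near-identical copies is not given, so these levels are uncertain.

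Coding footprints were spread very unevenly over the members. Rpl4, whose long loop lines the exit tunnel, and Rpl8, which lies at the peptidyl transferase centre, together held 64.5% of the members' coding footprints with tunicamycin and 67.1% untreated. Rpl8 had 3955, 3610 and 3215 CPM of coding footprints with tunicamycin and 4521, 4164 and 4345 untreated. Rpl4 had 3370, 3369 and 2819 with tunicamycin and 3965, 3934 and 3432 untreated. For both genes every tunicamycin library lay below every untreated one, but neither passed the test (Rpl8 log2 -0.26 ± 0.10, edgeR adjusted p = 0.172; Rpl4 -0.23 ± 0.10, adjusted p = 0.261). At the other end, 19 members had 0 to 41 coding footprints summed over the 6 libraries and were too few to test. All of these 19 but Rpl34, that is 18, had over 100 CPM of RNA. The 19 are Rpl5, Rpl9, Rpl10, Rpl11, Rpl13, Rpl15, Rpl17, Rpl19, Rpl21, Rpl23a, Rpl24, Rpl27a, Rpl28, Rpl31, Rpl34, Rpl35, Rpl36, Rpl38 and Rpl39.

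The 26 members that could be tested had 61 to 137260 coding footprints. RefSeq names a median of 5 pseudogenes (0 to 24) for the 19 members with few footprints and of 1 (0 to 14) for the 26 tested ones; the part of such copies in the counts was not tested. Untreated coding footprints per RNA read, both in CPM and with no correction for length, were highest for Rpl30 (221, on few RNA reads), Rpl8 (1.66), Rpl4 (1.08), Rpl22 (0.857) and Rplp2 (0.549). The median was 0.0636 over 25 tested members with RNA and 0.000808 over the 19 others.

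**Figure D1:**
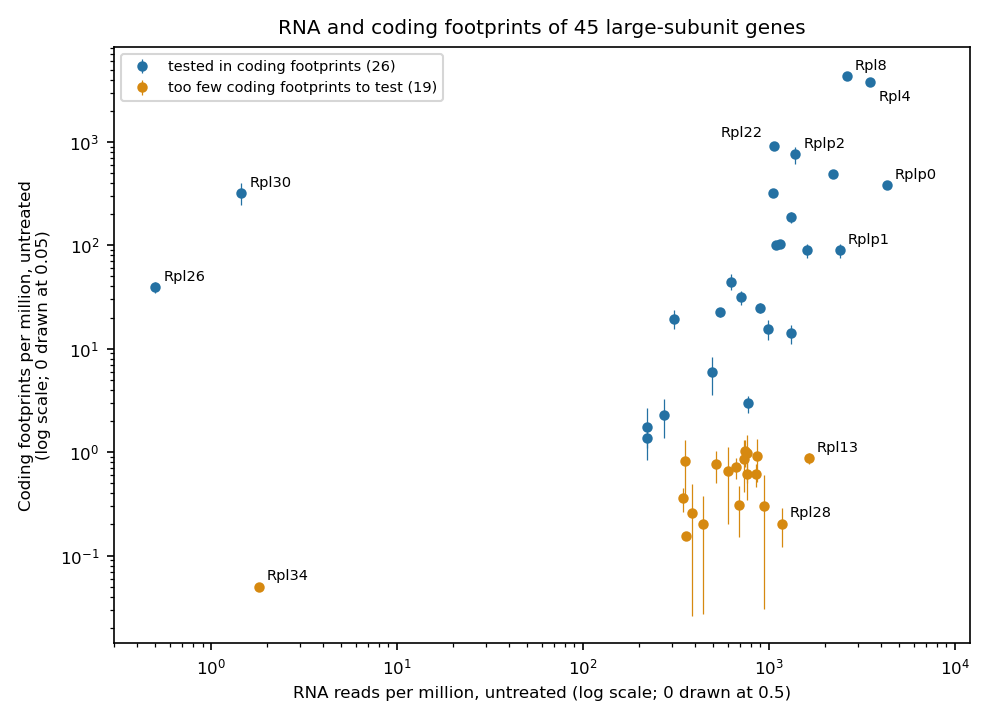
Untreated RNA in CPM (x axis, log scale) against untreated coding footprints in CPM (y axis, log scale, mean of 3 libraries with SD, lower bars stopped short of 0) for the 45 large-subunit genes, with no correction for length. The 26 tested members are blue, and the 19 orange members, with at most 41 coding footprints over all libraries, lie mostly at RNA levels like those of the blue ones.

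Among the members with enough footprints, Rpl41 and Rplp1 rose in coding footprints after tunicamycin and Rpl37a fell. These 3 of 26 are 11.5% of the members tested, where 2.58% of all 9265 genes tested passed (1.78% up and 0.799% down). The members that could be tested had a median log2 change of -0.12, against 0 over all genes tested, with 9 above 0 and 17 below. At an unadjusted p under 0.05 there were 13 members (50%, beside 16.6% of all genes tested). DESeq2 called the same 3 genes. Without tunicamycin library 3 only Rpl41 passed (0.639% of all genes did), likewise without untreated library 2 (0.626%), and with no filter on low counts 8 members did (4.47%). In that fit with no filter, the median log2 change was -0.03 over 44 members.

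Rpl41 encodes a very short basic peptide that sits between the subunits. It had 35.3, 58.3 and 66.5 CPM of coding footprints with tunicamycin and 27.7, 22.4 and 24.9 untreated. All tunicamycin libraries lay above the untreated ones, with library 1 the lowest of them, and the log2 change was 1.10 ± 0.18 (edgeR adjusted p = 0.00472). This call held in each of the 10 alternatives run. Rpl41 RNA changed by 0.12 ± 0.11 (adjusted p = 0.697), with groups that overlapped.

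The stalk is the flexible arm that recruits elongation factors, and its members did not move alike. Rplp1 had 110, 146 and 160 CPM of coding footprints with tunicamycin and 90.3, 74.9 and 103 untreated. The groups did not overlap, although tunicamycin library 1 and untreated library 3 came close (log2 0.65 ± 0.13, edgeR adjusted p = 0.0168). The call was lost without tunicamycin library 2 (adjusted p = 0.0742), without tunicamycin library 3 (0.111) and without untreated library 2 (0.111). Rplp2, the partner with which Rplp1 forms dimers, had 651, 784 and 729 with tunicamycin and 621, 744 and 905 untreated, with the groups overlapping (log2 -0.05 ± 0.11, adjusted p = 0.869). Rplp0, which anchors those dimers, had 330, 362 and 298 with tunicamycin and 366, 370 and 402 untreated (log2 -0.19 ± 0.09, adjusted p = 0.313). Rpl12, a protein of the stalk base, had 6.45, 4.63 and 6.68 with tunicamycin and 3.61, 2.62 and 2.65 untreated. These groups did not overlap, but Rpl12 had only 145 coding footprints in all and did not pass (log2 1.01 ± 0.26, adjusted p = 0.0534). The differences between stalk genes were not tested.

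Rpl37a, a small zinc-binding protein of the subunit, had 13.1, 16.8 and 13.2 CPM of coding footprints with tunicamycin and 22.4, 24.7 and 20.3 untreated. All tunicamycin libraries lay below the untreated ones (log2 -0.64 ± 0.16, edgeR adjusted p = 0.0447). The call was lost without tunicamycin library 1 (adjusted p = 0.0676), 2 (0.0574) or 3 (0.202) and without untreated library 1 (0.0994) or 2 (0.183). Its RNA changed by 0.03 ± 0.14 (adjusted p = 0.953).

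Of the core proteins, Rpl3 had 18.7, 27.6 and 21.8 CPM of coding footprints with tunicamycin and 25.9, 33.2 and 34.8 untreated, with tunicamycin library 2 inside the untreated range (log2 -0.45 ± 0.16, adjusted p = 0.15). Rpl30 changed by -0.38 ± 0.13 (adjusted p = 0.136) and Rpl26 by -0.35 ± 0.13 (adjusted p = 0.16), and both overlapped between the groups. Rpl22, an RNA-binding protein needed for T cell development in mice, had 852, 1012 and 842 with tunicamycin and 925, 930 and 899 untreated. Its change of -0.01 ± 0.09 (adjusted p = 0.963) was among the smallest. The members together took 1.08%, 1.11% and 0.963% of coding footprints with tunicamycin and 1.22%, 1.20% and 1.21% untreated. Of RNA reads they took 4.27%, 4.71% and 4.22% with tunicamycin and 4.03%, 4.53% and 4.61% untreated. The footprint shares did not overlap between the groups and the RNA shares did; the footprint shares rest mostly on Rpl4 and Rpl8.

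**Figure D2:**
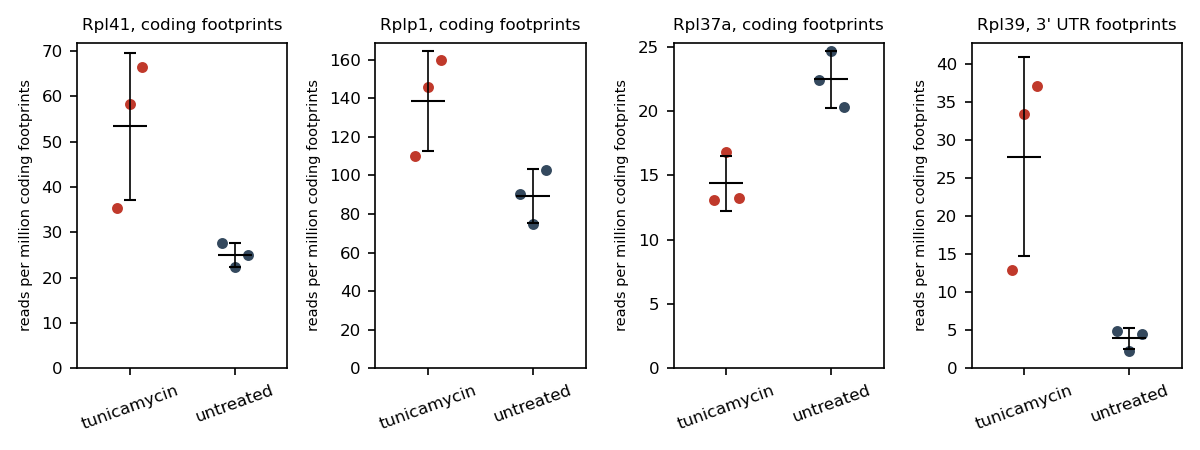
Reads in CPM of the coding total in each of 3 tunicamycin and 3 untreated cycloheximide libraries (points), with mean and SD, for coding footprints of Rpl41, Rplp1 and Rpl37a and 3' UTR footprints of Rpl39. Rpl41, Rplp1 and Rpl39 lie higher in every tunicamycin library, and Rpl37a lies lower at 13.1 to 16.8 against 20.3 to 24.7.

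Translational efficiency, tested as the change of coding footprints relative to RNA, rose for Rplp1 alone of the 45 members fitted. That is 2.22% of the members, where 1.07% of 10154 genes passed (0.739% up and 0.335% down). Because this fit filtered footprints and RNA together, the 45 include the 19 members with at most 41 coding footprints. Apart from Rpl34, their SEs ran from 0.41 (Rpl13) to 1.2 (Rpl19), and they count in the median below. The Rplp1 change was 0.72 ± 0.17 (log2, edgeR adjusted p = 0.0472), and it stayed between 0.61 and 0.85 in 16 alternatives but passed in only 6 of them. It failed when any single RNA library was left out (adjusted p from 0.0563 to 0.137) and without tunicamycin footprint library 2 (0.103) or 3 (0.144) or untreated footprint library 1 (0.0759) or 2 (0.148). Rpl41 changed by 0.97 ± 0.23 and just missed the threshold (adjusted p = 0.0512), which it passed without tunicamycin footprint library 1 (1.18, adjusted p = 0.00313) or untreated RNA library 1 (1.08, 0.0388), and with no filter on low counts (0.96, 5.71e-09). Rpl12 changed by 0.90 ± 0.26 (adjusted p = 0.0934) and Rpl3 by -0.64 ± 0.17 (adjusted p = 0.0836). DESeq2 called 4 members, with Rpl12, Rpl41 and Rplp1 higher and Rpl3 lower, and 3.84% of all genes. No change could be estimated for Rpl26 and Rpl34, which had no RNA or no footprints, and the median over the other 43 members was 0, against -0.02 over all genes.

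**Figure D3:**
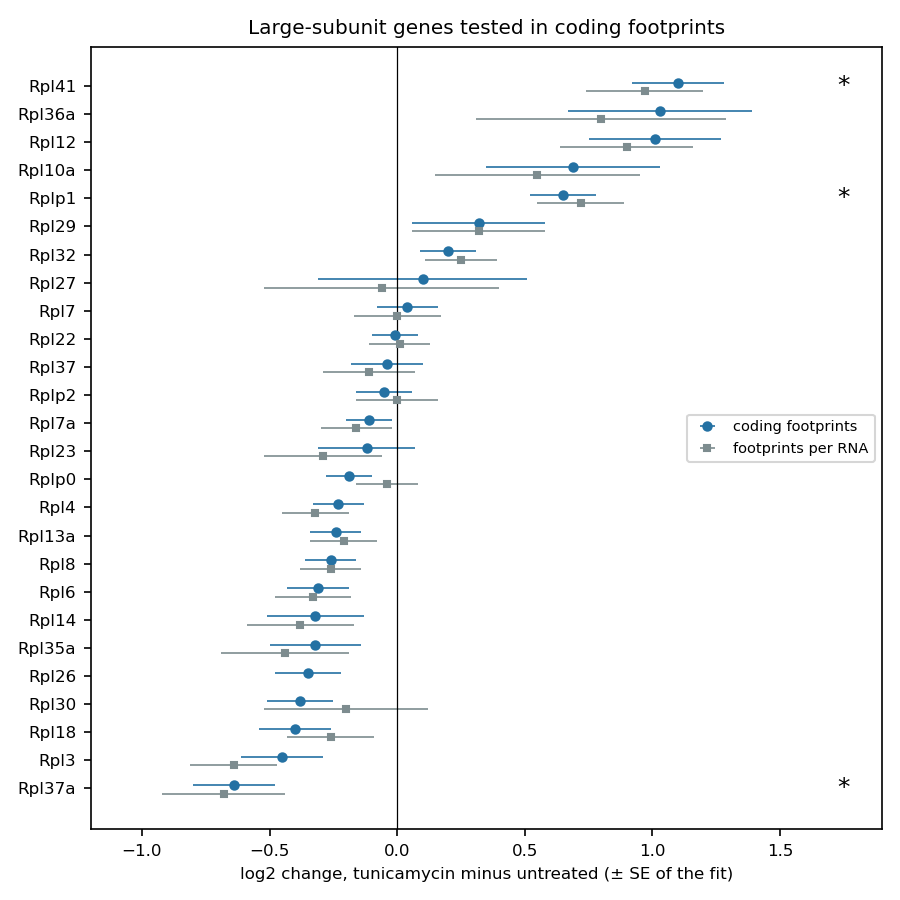
Log2 change, tunicamycin minus untreated, with the SE of the fit, in coding footprints (blue circles) and in footprints per RNA (grey squares) for the 26 members tested in coding footprints; an asterisk marks an edgeR adjusted p under 0.05 in coding footprints. Rpl41 (1.10, highest), Rplp1 (0.65) and Rpl37a (-0.64, lowest) passed; Rpl36a, Rpl12 and Rpl10a lie above Rplp1 with wider errors and did not pass, and Rpl26, with no RNA reads, has no grey square.

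Leader footprints, those on the 5' UTR, gained on coding footprints across all genes together. Leader reads made up 7.86%, 7.94% and 10.4% of leader and coding footprints in tunicamycin libraries and 5.16%, 4.07% and 5.47% in untreated libraries. Of 32 members tested, 10 rose in the ratio of leader to coding footprints and 0 fell, which is 31.2% of the members beside 33.7% up and 0.065% down of all 9236 genes tested. The share of members was thus near that of all genes. The median log2 change was 0.86 over 31 members with an estimate and 0.86 over all genes tested. The tests compare each ratio change with 0 and not with that general shift.

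Rpl37a, which fell in coding footprints, the lower term of this ratio, had 16, 28 and 41 leader reads with tunicamycin and 11, 8 and 13 untreated. They made up 19.8%, 26.9% and 38.0% of its leader and coding footprints with tunicamycin and 6.88%, 4.76% and 9.09% untreated, with no overlap (log2 2.44 ± 0.39, edgeR adjusted p = 8.18e-06, 1.58 above the median of all genes). Rpl23, which lies at the face that meets the small subunit and where the factor eIF6 binds, had leader shares of 14.3%, 15.4% and 17.1% with tunicamycin and 2.50%, 1.67% and 1.85% untreated. These shares rest on 10, 14 and 14 leader reads with tunicamycin and 2 in each untreated library (log2 3.13 ± 0.57, adjusted p = 5.15e-05). Rpl30 had leader shares of 17.5%, 15.1% and 17.8% with tunicamycin and 10%, 6.28% and 5.64% untreated (log2 1.40 ± 0.27, adjusted p = 0.000141). For these 3 genes the groups did not overlap and the call held in all 9 alternatives. Against the median of all genes, Rpl23 lay 2.27 above and Rpl30 0.54 above.

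The other 7 members that rose in the leader ratio were less firm. Rpl22 changed by 1.66 on leader shares under 1% (adjusted p = 0.00343), and Rpl35a by 1.59 on shares of 16.1%, 8.99% and 18.1% with tunicamycin and 5.45%, 5.00% and 5.22% untreated (0.00635). Rpl5 changed by 2.45 (0.00885), with 49, 71 and 87 leader reads with tunicamycin and 31, 25 and 41 untreated, but its coding sequence held only 22 reads in all. Rpl32 (0.86), Rpl13a (0.82), Rpl37 (2.00) and Rpl4 (0.80) had adjusted p-values of 0.0151, 0.0191, 0.0239 and 0.0431 in that order. Against the median of all genes, Rpl32 lay at 0, Rpl13a at -0.04 and Rpl4 at -0.06, so they moved as the typical gene did. Rpl22 lay 0.80 above that median, Rpl35a 0.73, Rpl5 1.59 and Rpl37 1.14. Without tunicamycin library 3, in which the leader share of all genes was highest, 3 members passed in place of 10, namely Rpl37a, Rpl23 and Rpl30, while the share of all genes passing was 15% in place of 33.8%; Rpl4 then changed by 0.34 (adjusted p = 0.485) and Rpl37 by 1.25 (0.333). Without untreated library 2 there were 6 (20.8% of all genes passed), and Rpl4, Rpl5, Rpl13a, Rpl32 (0.51, adjusted p = 0.154) and Rpl37 were not among them. Single calls were also lost without untreated library 1 (Rpl4, adjusted p = 0.0616; Rpl37, 0.0726), without untreated library 3 (Rpl5, 0.0564) and without tunicamycin library 2 (Rpl13a, 0.0558). Rpl37 changed by 3.58 without untreated library 3, where most of its 6 untreated leader reads were. DESeq2 called 4 members and 13.3% of all genes.

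The coding-footprint risers did not show a rise in the leader ratio that passed. Both were picked by coding footprints, the lower term of this ratio, so it is not a separate result. Leader CPM of the coding total in Rpl41 was 8.86, 14.8 and 17.1 with tunicamycin and 6.92, 5.09 and 4.05 untreated, without overlap. Rplp1 had 44.7, 66.9 and 74.3 with tunicamycin and 30.7, 29.2 and 46.9 untreated, with overlap. Leaders of all genes together also rose on this scale. Rplp1 had leader shares of 28.8%, 31.5% and 31.7% with tunicamycin and 25.3%, 28.0% and 31.3% untreated (log2 0.17 ± 0.26, adjusted p = 0.64). Rpl41 had 20.1%, 20.2% and 20.5% with tunicamycin and 20%, 18.5% and 14% untreated (log2 0.25 ± 0.28, adjusted p = 0.508). Both changes lay below the median of all genes, by 0.69 and 0.61 log2 units; those differences were not tested.

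In 11 members more reads were assigned to the leader than to the coding sequence: Rpl5, Rpl9, Rpl10, Rpl19, Rpl27, Rpl28, Rpl29, Rpl31, Rpl34, Rpl36a and Rpl38. In Rpl29 the leader share was 71.6%, 70.2% and 75.4% with tunicamycin and 74.4%, 66.3% and 68.2% untreated, and in Rpl36a it was 70.7%, 68.9% and 81.5% with tunicamycin and 74.4%, 76.7% and 75.7% untreated. The groups overlapped in both, and neither gene passed. Rpl34, with 0 coding footprints, had 29, 36.4 and 43.6 leader CPM of the coding total with tunicamycin and 17.3, 13.9 and 17 untreated. The groups did not overlap, but on this scale leaders of all genes together also rose, and Rpl34 was not tested against that shift. With no coding reads its ratio has no estimate.

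**Figure D4:**
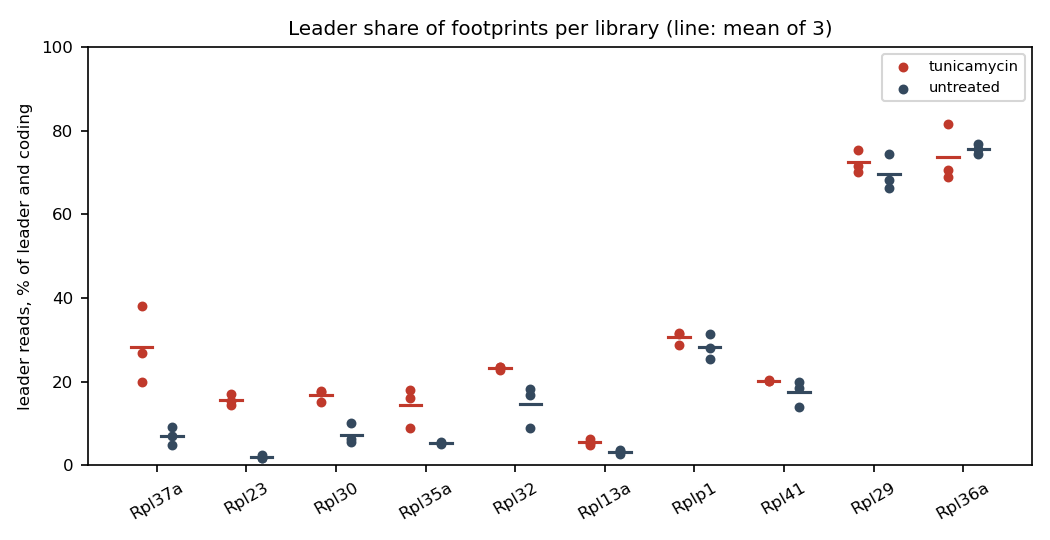
Leader reads as a percent of leader and coding footprints in each tunicamycin and untreated cycloheximide library (points; line, mean of 3) for 10 large-subunit genes. Rpl37a, Rpl23 and Rpl30 separate clearly between the treatments, while Rplp1, Rpl29 and Rpl36a overlap.

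The ratio of 3' UTR to coding footprints rose for Rpl39, a small protein that lines the exit tunnel. It was 1 of 28 members tested (3.57%), where 0.336% of 9230 genes tested passed (0.249% up and 0.0867% down). Rpl39 had 64, 152 and 189 reads on its 3' UTR with tunicamycin and 33, 15 and 29 untreated, with no overlap, while its coding sequence held 21 reads in all (log2 3.07 ± 0.78, edgeR adjusted p = 0.029). It was also the only member with more 3' UTR than coding reads. The call was lost without tunicamycin library 1 (adjusted p = 0.0643) or 3 (0.607), without untreated library 1 (0.702) or 3 (0.226), and with DESeq2 (0.993). Rpl37a had 2, 2 and 4 such reads with tunicamycin and 0 in each untreated library, and did not pass (adjusted p = 0.0675). Rpl32 changed by -0.39 ± 0.21 (adjusted p = 0.909) and Rpl27a by 2.56 ± 1.05 (adjusted p = 0.643). For most members 3' UTR reads were scarce: 35 of the 45 had under 10 in all, and 12 of the 28 tested gave no estimate.

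Harringtonine reads of the large-subunit genes did not pass the test for any gene or position. The deposited lists held 106 positions in 42 members, and none for Rpl18, Rpl21 and Rpl24. Summed per gene, 0 of 40 members tested passed with edgeR, where 0.0272% of 3681 genes did. At an unadjusted p under 0.05 there were 7 members (17.5%, beside 3.61% of all genes), and DESeq2 called 0. Taken singly, 0 of 92 positions passed with edgeR, where 0% of 5843 positions did, with 10 at an unadjusted p under 0.05 (10.9%, beside 3.61% of all positions) and 0 called by DESeq2. The median change per gene was -0.12 over the members and -0.01 over all genes. The members took 4.58%, 4.78% and 3.50% of harringtonine reads with tunicamycin and 5.87%, 5.68% and 4.44% untreated, shares that overlapped. Rpl35 alone held 10014, 8093 and 4522 of the members' 29661, 26715 and 20695 reads with tunicamycin. Untreated, it held 12243, 9687 and 6013 of 30767, 25378 and 21374.

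Rpl23a, which with Rpl35 forms part of the docking site for the signal recognition particle at the tunnel exit, had 137, 166 and 108 CPM of harringtonine reads with tunicamycin and 216, 253 and 293 untreated. The groups did not overlap (log2 -0.90 ± 0.25, edgeR adjusted p = 0.998). Rpl6 had 150, 170 and 159 with tunicamycin and 91.6, 76.1 and 112 untreated, with no overlap in the other direction (log2 0.76 ± 0.25, adjusted p = 0.998). Rpl28 changed by -0.85 ± 0.31 and Rpl10a by -0.72 ± 0.28 (adjusted p = 0.998 each). Rplp1 had 722, 718 and 645 with tunicamycin and 437, 537 and 571 untreated, without overlap (log2 0.42 ± 0.22, adjusted p = 0.998). Rpl41 had 4241, 5778 and 4927 with tunicamycin and 5874, 5148 and 5154 untreated, with overlap (log2 -0.12 ± 0.19, adjusted p = 0.998).

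Harringtonine reads were plentiful in several members whose coding sequence held almost no cycloheximide reads. A total of 7 members had over 1000 harringtonine and under 100 coding reads summed over all libraries. Rpl35 was the extreme, with 50572 harringtonine reads and 25 coding reads. It had 15450, 14487 and 7654 CPM of harringtonine reads with tunicamycin and 23370, 21692 and 12487 untreated, and library 3 was the lowest in both groups (log2 -0.63 ± 0.27, adjusted p = 0.998). The numbers of the harringtonine columns were not matched to those of other libraries.

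Some listed positions stood close to an ATG near the annotated start, and most did not. Of 32 members with both a RefSeq start window and listed positions, 15 had an ATG that began within 47 letters of the start. Of these, 7 had a position from 15 letters before to 3 after its A and 8 had none, and 12 of the 44 positions in the 15 members lay in that range. The windows below, from GRCm38.p6 and read on the gene strand, are of the 7 members chosen by that range, with the ATG in capitals, so the distances are a description.
Rpl35: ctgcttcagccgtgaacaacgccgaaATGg
Rpl27a: ctcccttttccctttctgccaccgccATGg
Rpl14: ctctcttctcgctgagcgccgccaacATGg
Rpl4: gagcgtggccttctcctctccccgtcATGg
Rpl13a: cctcctttcccaggcggctgccgaagATGg
Rpl11: ctccctctctcttcctgttctccaccATGg
Rpl5: cgtgctggtggtgctacatactgcgcATGc
In Rpl35 (chr2:39005083-39005112, minus strand) the position with 18986 tunicamycin and 24540 untreated reads lay 7 letters before the A, and a lesser one 3 letters before it. In Rpl27a (chr7:109519194-109519223, plus strand) positions lay 4 and 1 letters before the A and on it, with 2165, 2577 and 2435 reads with tunicamycin and 2646, 2180 and 2041 untreated. In Rpl4 (chr9:64173405-64173434, plus strand) they lay 13 and 12 letters before, and in Rpl13a (chr7:45128711-45128740, minus strand) 13 before. In Rpl14 (chr9:120571513-120571542, plus strand) the position lay 3 letters before, in Rpl11 (chr4:136053350-136053379, minus strand) on the A and 2 after it, and in Rpl5 (chr5:107900527-107900556, plus strand) 9 before. Whether a listed position is a read end or was shifted toward the ribosome's P site is not given, and an ATG found by its letters is not an annotated start codon.

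Other positions lay elsewhere in the gene. Rpl11 had a position at chr4:136051693 with 57, 73 and 68 reads with tunicamycin and 21, 13 and 34 untreated, which did not overlap (log2 1.25 ± 0.36, edgeR adjusted p = 0.999). In Rpl6 the position at chr5:121205601 had 81, 78 and 85 reads with tunicamycin and 35, 20 and 42 untreated (log2 1.04 ± 0.31, adjusted p = 0.999). Rpl39 had positions from chrX:37082695 to 37082725, near the 3' end of the gene on the minus strand (37082518 to 37085222). The first of these had 36, 21 and 24 reads with tunicamycin and 12, 7 and 8 untreated, with no overlap (log2 1.27 ± 0.40, adjusted p = 0.999). None of these positions passed the test.

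**Figure D5:**
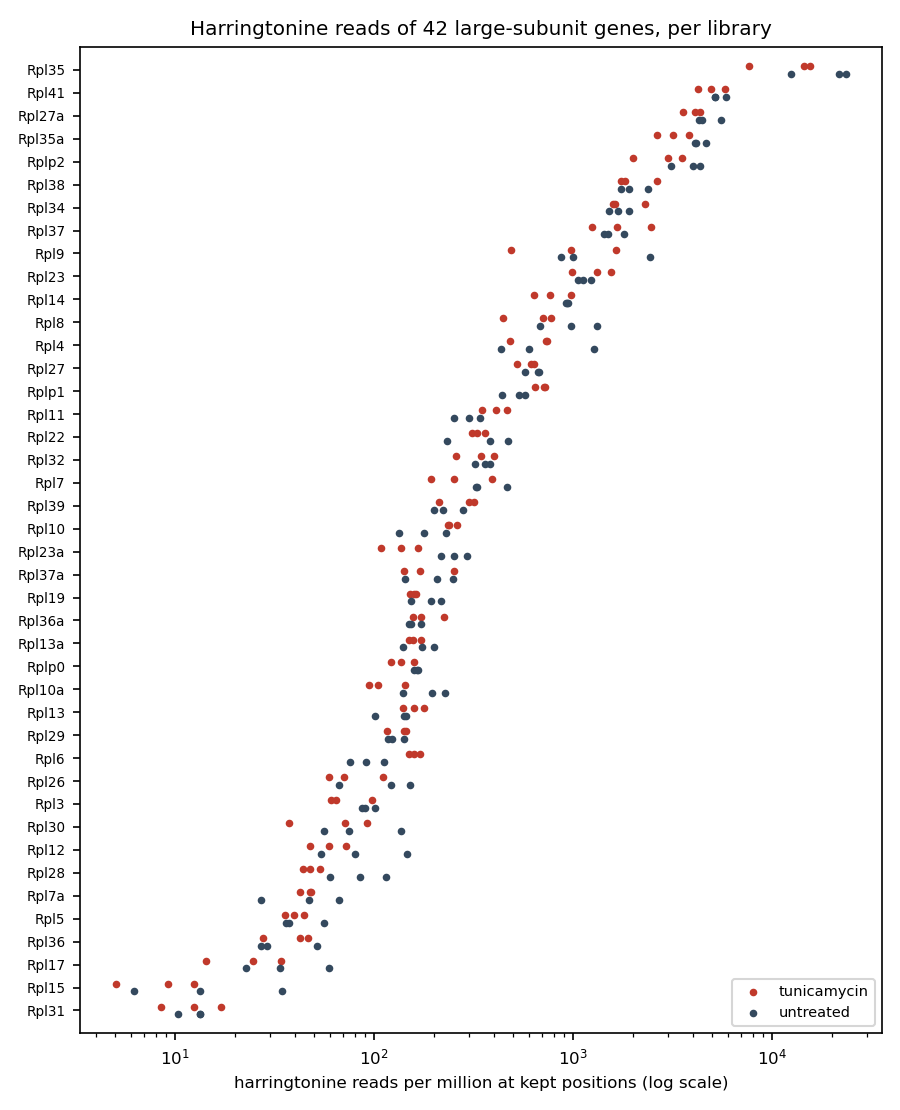
Harringtonine reads (CPM) at the listed positions (x axis, log scale), summed per gene, in each of 3 tunicamycin and 3 untreated libraries for the 42 large-subunit genes with positions, ordered by level. The treatments overlap in most genes, and Rpl35 lies highest, at 7654 to 15450 with tunicamycin and 12487 to 23370 untreated.

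Other genes of ribosome building and of the TOP class were counted in the same fits. Of 32 small-subunit genes, 0 passed in RNA, with a median log2 change of -0.01 (edgeR). Rps25 rose in translational efficiency, as 1 of 32 (3.12%) beside 1.07% of all genes. The median log2 change of the 32 in translational efficiency was -0.21, with 12 above 0 and 20 below. Of 48 large-subunit assembly factors, 0 passed in coding footprints (median 0.05). Spata5, which releases assembly factors from pre-60S particles, rose in RNA, as 1 of the 48 factors (2.08%) beside 0.15% of all genes. The leader ratio of the assembly factors rose in 26 of 48 (54.2%, median 1.03), beside 33.7% of all genes with a median of 0.86. Of 16 other TOP mRNAs, such as those of elongation factors, 0 passed in coding footprints (median -0.17) and 9 rose in the leader ratio (56.2%, median 0.97). Whether these lists differ from the large-subunit genes was not tested.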

How the data were processed

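Ribosome footprints and total RNA were sequenced from erythroblasts. The deposited values are raw counts made by the authors: cycloheximide footprints per gene on the 5' UTR, coding sequence and 3' UTR, RNA reads per gene, and harringtonine reads at single positions. RNA came from an RNeasy Plus kit and libraries from NEBNext small RNA (footprints) or TruSeq (RNA) kits, per the labels' protocols. The submitters' processing notes name STAR, HTSeq and edgeR, and the builds GRCm38 and mm10. Their versions, the use of strand, the treatment of multi-mapped reads and that of reads which fall on a leader of one transcript and the coding sequence of another are not given.

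Counts were tested over all genes with edgeR 4.0.16 under R 4.3.3, using filterByExpr (minimum count 10, minimum total 15), TMM factors, the quasi-likelihood F test and Benjamini-Hochberg adjustment with a threshold of 0.05. Log2 changes are tunicamycin minus untreated, with the SE of the fit. TMM sets the typical gene near 0, so a change common to all mRNAs is not seen in RNA, coding or harringtonine counts. Translational efficiency was the interaction of assay and treatment over 12 libraries. Leader and 3' UTR ratios were interactions of feature and treatment over 6 libraries, with the library as a term. CPM values use the library's total of that measure, and for leaders and 3' UTRs its coding total. Harringtonine counts per gene sum the listed positions. Fits were run on simulated counts with changes placed only in well-covered features. That run does not speak for ratios that rest on few reads.

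The members and lists were chosen with earlier results of these data known. Genes were named if they passed in a comparison, were among the 4 smallest p-values in it, were stalk or 5S particle genes, Rpl41, among the 5 highest in footprints per RNA, or at 0 in an assay. For other lists only some results are given, and the small-subunit result in coding footprints is not reported here. Rpl35 and other genes outside this rule were chosen after their values were seen. The 5 highest and lowest members per kb of coding sequence were not ranked, as coding lengths were not used here. Alternatives changed the scaling, tool (DESeq2 1.42.0), filter or block, or left out 1 library. RNA libraries of the same number deviated together (correlations 0.42, 0.31 and 0.19), but tunicamycin library 3 correlated as well with untreated library 2 (0.19). The reported fits of RNA, coding footprints and translational efficiency were unpaired. The replicate number entered as a block only as an alternative.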

Additional observations from a re-analysis of the deposited data

How the results depend on the processing

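No result reversed. With DESeq2's size factors in edgeR every count of passing members stayed as reported. Shares of all genes passing in the same fit are in brackets. With no filter on low counts, 1 member passed in RNA (Rpl5 higher; 0.819%), 8 in coding footprints (4.47%; Rpl12, Rpl41 and Rplp1 higher; Rpl18, Rpl3, Rpl30, Rpl37a and Rpl8 lower) and 5 in translational efficiency (2.60%). With DESeq2, 4 passed in translational efficiency (3.84%), 4 in the leader ratio (13.3%) and 0 in the 3' UTR ratio (0%). With the replicate block, 1 passed in RNA (Rpl38 lower; 3.85%), 11 in coding footprints (9.55%; Rpl12, Rpl41 and Rplp1 higher, 8 lower, among them Rpl4 and Rpl8) and 6 in translational efficiency (7.54%; Rpl12, Rpl41 and Rplp1 higher, Rpl3, Rpl4 and Rpl8 lower). Same-numbered coding libraries correlated at 0.35, 0.09 and 0.28, each best with its own number, which is a hint from the data and not the design. No paired analysis was possible for harringtonine counts because the columns do not show which sample they hold. In the leader and 3' UTR ratios the library term ties leader or 3' UTR counts to the coding counts of the same library. It does not pair tunicamycin with untreated libraries, and no replicate block was fitted there. Leaving out each library in turn gave 0 in RNA, 1 to 3 in coding footprints, 0 to 2 in translational efficiency, 3 to 11 in the leader ratio and 0 to 1 in the 3' UTR ratio. The genes passing in coding footprints were not always the same. In place of Rpl37a, Rpl6 passed as lower without tunicamycin library 1, Rpl18 without tunicamycin library 2 and Rpl30 without untreated library 1. Harringtonine genes and positions stayed at 0 in every alternative run. The cause of these shifts was not tested. Depth limits the 19 members with at most 41 coding footprints, and the ratios of Rpl5, Rpl39 and Rpl23, which rest on few reads.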
